A study of Mus musculus with 12 samples.

Results

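The genes described here are 8 whose proteins act when mononuclear osteoclast precursors join into multinucleated osteoclasts: Dcstamp, Ocstamp, Cd9, Cd81, Cd47, Sirpa, Adam8 and Cd44. They were chosen by name for the known roles of the proteins, with earlier results of these data known, and all 8 were among the 24421 genes listed for every library. Their mRNA was followed by RNA-seq in mouse bone marrow macrophages (BMMs), the cultured cells that serve as osteoclast precursors, over 6 conditions with 2 replicates each, 12 libraries in all. The study names a C57BL/6 background for the mice, and marrow cells had been grown with M-CSF, the survival factor of macrophages, for 3 days. Per the study's methods M-CSF was also present in the culture that followed, with or without RANKL. In the loss of function experiment, WT cells (Mir182+/+LysMcre(+)) and Mir182ΔM/ΔM cells (Mir182flox/floxLysMcre(+)) were compared without RANKL (basal) and after RANKL, the cytokine that drives osteoclast formation, for 5 days. In the gain of function experiment, Control cells (LysMcre(+)) were compared with Mir182mTg cells (LSL-Mir182LysMcre(+)), which carry a miR-182 transgene behind a STOP cassette that Cre removes, both without RANKL. Every group, controls included, carries LysMcre, in which the lysozyme M promoter drives Cre in myeloid cells, so deletion or activation of Mir182 depends on the share of cells in which Cre acted. The controls were littermates, and the ages and sexes of the mice behind these libraries are not given in the sources used here. The study describes the replicates of a condition as biological, though no library is tied to a named mouse or culture, and p-values measure the spread between these libraries.

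Osteoclasts form by fusion of macrophage precursors, and fusion proceeds through attraction and recognition, adhesion, and the merging of membranes. DC-STAMP and OC-STAMP are multipass membrane proteins made during RANKL-driven differentiation, and cells that lack either form few multinucleated osteoclasts. CD9 and CD81 are tetraspanins, small membrane proteins that gather partner proteins into membrane microdomains. CD47 and SIRPα are a ligand and receptor pair through which macrophages recognise each other, ADAM8 is a membrane metalloprotease, and CD44 is a receptor for hyaluronan and osteopontin.

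After RANKL, all 8 genes differed between Mir182ΔM/ΔM and WT cells, 4 higher and 4 lower, in a comparison in which 14.3% of all genes tested were called higher and 30.9% lower. Dcstamp and Ocstamp, which rose from near 0 in both genotypes, were at 32.3 ± 6.44 and 22.5 ± 0.359 CPM (reads of a gene scaled to the same total of reads on genes in each library; SD, n = 2) in Mir182ΔM/ΔM cells, against 186 ± 34.2 and 107 ± 14.9 CPM in WT cells. Cd9 and Sirpa were also lower in Mir182ΔM/ΔM cells, while Adam8, Cd47, Cd44 and Cd81 were higher. The RANKL response of Adam8 ran in opposite directions, with a fall in WT cells and a rise in Mir182ΔM/ΔM cells. The differences after RANKL and the responses in WT cells all use the WT RANKL libraries. The Cre allele and genetic background of the mice behind those libraries cannot be told apart from RANKL and genotype, as described below. Without RANKL Adam8 alone passed the threshold between these genotypes, and none of the 7 genes tested did between Mir182mTg and Control cells. Of all genes 2.71% passed upward and 1.1% downward in the first comparison, and 0.0993% and 0.157% in the second. With the replicate number as a block, Cd47, Cd44 and Cd81 also passed in the first of these comparisons, and Adam8 and Cd44 in the second. Over all genes the block called 2170 higher and 1481 lower of 11691 in the first, and 838 and 984 of 12081 in the second.

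Each library held between 24951280 and 33050619 reads counted on genes, so 3 reads stood for 0.0908 to 0.120 CPM, and levels below that are given as reads. The 6 macrophage markers (Csf1r, Adgre1, Cd68, Mertk, Fcgr1, Itgam) summed to 5620 to 8475 CPM. The 5 osteoclast markers (Acp5, Ctsk, Calcr, Oscar, Mmp9) summed to 9.46 to 30.4 CPM without RANKL, 8962 and 9393 CPM in WT RANKL and 2911 and 2915 CPM in Mir182ΔM/ΔM RANKL. Of these 5, Acp5, Ctsk, Mmp9 and Oscar were lower in Mir182ΔM/ΔM RANKL than in WT RANKL, while Calcr, the calcitonin receptor, was at 9.07 and 9.68 CPM against 9.78 and 8.997 CPM, and the groups overlapped. Markers of B cells and of mast cells and basophils stayed under 1 CPM in sum, those of dendritic cells reached 3.53 CPM, those of T cells 16.8 CPM, those of stromal cells 36.7 CPM and those of neutrophils 79.9 CPM. The highest T cell sum was nearly all Cd4, at 16.5 CPM, while Cd3e reached 0.036 CPM, Cd3g 0.0657 CPM and Lck 0.537 CPM. Of the 5 megakaryocyte and erythroid markers 2 had no read in any library. The sum reached 344 CPM, nearly all of it Pf4, while Itga2b reached 1.4 CPM and Gp1ba 0.214 CPM. Reads on Mir182 numbered 79 and 123 in Mir182mTg cells and 0 or 1 in every other library, so these libraries do not show the deletion. In bulk RNA, fewer osteoclasts and less RNA of a gene in each osteoclast cannot be told apart, and with the sum of the osteoclast markers lower in Mir182ΔM/ΔM RANKL, this holds for every RANKL result below.

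The WT RANKL libraries differed from the rest of their experiment in 2 genes that bear on their labels. Lyz2, the gene that holds the Cre of LysMcre, was at 4117 and 4288 CPM in WT RANKL but at 22.5 to 44.0 CPM in the other 6, and at 5783 to 7062 CPM in the gain of function libraries. Ifi202b was at 1.12 and 0.972 CPM in WT RANKL but at 82.1 to 152 CPM in the other 6, and at 0.0908 CPM or less in the gain of function libraries. The Cre allele and the genetic background of the WT RANKL mice therefore cannot be told apart from the effects of RANKL and of genotype in any comparison that uses these 2 libraries. The fold changes for RANKL within Mir182ΔM/ΔM cells and for the comparison at baseline do not use them. Their p-values do in part, since the 4 groups share 1 estimate of the spread and 1 filter on low levels. The levels in Control cells, which resembled WT RANKL in these 2 genes, are given beside the results below as values from another experiment, with no test. Which of the libraries match the C57BL/6 background that the study names was not tested.

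The mature miRNA that the study manipulates is printed here from RefSeq (GRCm38.p6, chr6:30165962-30165986, minus strand), with the seed, bases 2 to 8, in capitals.
mmu-miR-182-5p: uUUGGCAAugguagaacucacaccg

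Matches to this seed were searched in the 3′ UTRs of coding transcripts in GENCODE vM21 (GRCm38, the build also called mm10), as TTGCCAA or TGCCAAA, which overlap in 6 bases, on the strand of the gene. Of the 8 genes, Dcstamp and Cd47 held a match and the other 6 did not. Among all 21028 genes with such a UTR, 18.3% held one. The sites are shown because these genes moved in opposite directions in Mir182ΔM/ΔM cells after RANKL: Dcstamp was lower and Cd47 higher. The Dcstamp site lies at chr15:39760545-39760551 (plus strand), and those of Cd47 at chr16:49912491-49912497 and chr16:49914924-49914930 (plus strand), all 3 within 3′ UTRs, and the capitals mark the match.
Dcstamp site: gtcgatcataaTGCCAAAtagcccctagg
Cd47 site 1: tgcctctcgtaTGCCAAActttttgtcat
Cd47 site 2: acctgcaatctTTGCCAAgatactttttt
A match says only that these letters are present in an annotated UTR. The longest UTR of Cd47, at 4133 bases, was also the longest of the 8, against a median of 960.5 bases over all genes with a UTR.

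Differences in the loss of function experiment were tested with limma on log2(CPM + 1) over 11691 genes, with Benjamini-Hochberg adjustment over all of them and a threshold of 0.05, and folds on that scale understate the change of genes near 0. With RANKL 7 of the 8 genes changed in WT cells, 5 upward and 2 downward, while 40.6% of all genes tested passed upward and 22% downward. In Mir182ΔM/ΔM cells all 8 changed, 5 upward and 3 downward, against a background of 30.4% upward and 26.4% downward. At baseline 1 gene was higher in Mir182ΔM/ΔM than in WT cells and none lower (background 2.71% and 1.1%), and at an unadjusted p under 0.05 limma had 3 higher and 0 lower. On the reads recovered from the CPM, edgeR and DESeq2 also called 0 lower. After RANKL 4 were higher and 4 lower (background 14.3% and 30.9%). The response to RANKL differed between the genotypes, by the interaction term of the fit, for 3 genes in the direction of a higher response in Mir182ΔM/ΔM cells and for 4 in that of a lower one (background 7.44% and 17.1%). In the gain of function experiment, tested with edgeR's quasi-likelihood test over 12081 genes, none of the 7 genes tested was higher or lower (background 0.0993% and 0.157%). At an unadjusted p under 0.05 edgeR also had 0, and so had DESeq2 and limma after adjustment. Calls were common among all genes in the comparisons with RANKL, and the counts of these 8 are a description. The median change of the 8 genes was 0.21 (log2) for RANKL in WT cells and 0.68 in Mir182ΔM/ΔM cells, against 0.19 and 0.05 over all genes tested. After RANKL the median difference between genotypes was 0.00 over the 8 genes and -0.15 over all.

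CPM holds no correction for RNA composition, and the median gene moved by 0.187 (log2) with RANKL in WT cells, by -0.145 between the genotypes after RANKL and by -0.151 in the interaction, so changes of that size are changes of the median gene. With TMM factors these medians were -0.00436, -0.00365 and 0.00528. The split of calls over all genes then moved from 4741 higher and 2571 lower to 3369 and 3562 for RANKL in WT cells, from 1668 and 3607 to 2438 and 2362 between genotypes after RANKL, and from 870 and 2005 to 1239 and 1274 in the interaction. Among the 8 genes in the loss of function experiment, the directions that turned with TMM factors were those of Cd9 and Cd47 for RANKL in WT cells, and the rises of Cd9 and Sirpa there were no longer past the threshold.

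**Figure D1:**
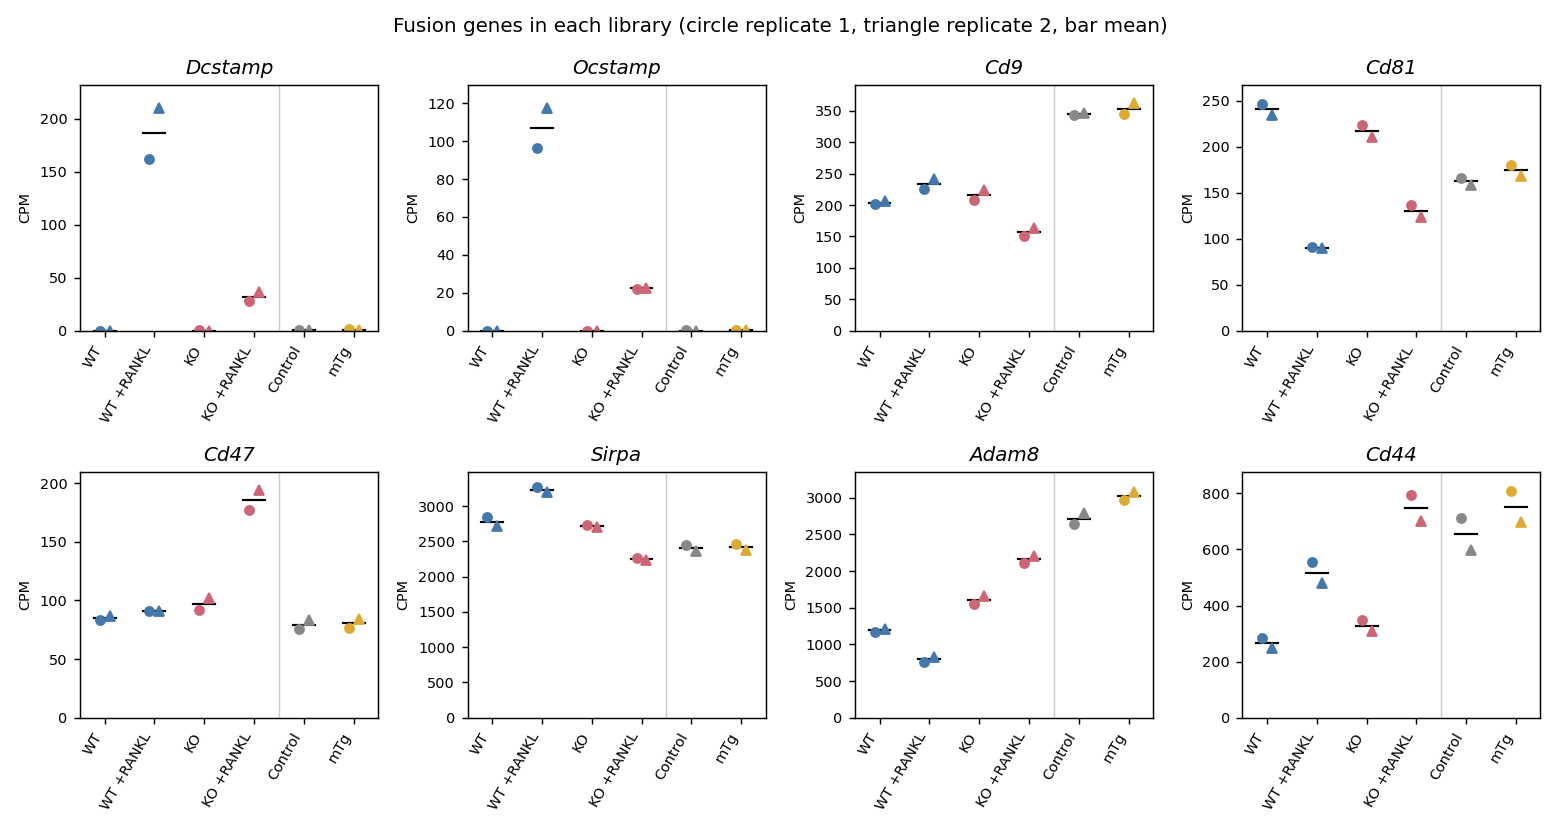
Level of each fusion gene (CPM, linear axes from 0) in the 12 libraries, with circles for replicate 1, triangles for replicate 2 and a bar at the mean of each condition; KO is Mir182ΔM/ΔM, mTg is Mir182mTg, and the grey line separates the experiments. Dcstamp and Ocstamp were near 0 in all conditions without RANKL, and after RANKL Adam8 was at 764 and 830 CPM in WT but 2114 and 2207 CPM in Mir182ΔM/ΔM cells.

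Per kilobase of transcript, which allows levels of different genes to be compared, Sirpa and Adam8 were the most abundant of the 8 in every condition. In WT basal cells the order was Sirpa (652 CPM per kb), Adam8 (382), Cd9 (171), Cd81 (159), Cd44 (47.0), Cd47 (44.5) and Dcstamp (0.113), and of these neighbours only Cd44 and Cd47 overlapped between replicates, while Ocstamp, with 1 read in all, was not ranked. In WT RANKL cells Dcstamp reached 90.5 CPM per kb, and its range overlapped that of Cd44 at 91.4, while Ocstamp at 54.7 overlapped Cd81 at 59.6. After RANKL in Mir182ΔM/ΔM cells Adam8 stood first at 693 CPM per kb and Sirpa second at 527, and Dcstamp at 15.7 and Ocstamp at 11.5 remained the 2 lowest. Adam8 also stood first in Control (871 CPM per kb) and Mir182mTg cells (970). Together the 8 genes took 4696 to 6845 CPM in a library.

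Dcstamp (chr15:39745930-39760938, plus strand) encodes the receptor-like protein named for dendritic cells but required for osteoclast fusion. In replicates 1 and 2 it was at 0.306 and 0.160 CPM in WT basal cells (10 and 4 reads), 162 and 210.1 CPM in WT RANKL, 0.444 and 0.224 CPM in Mir182ΔM/ΔM basal (12 and 6 reads) and 27.7 and 36.8 CPM in Mir182ΔM/ΔM RANKL. The RANKL groups did not overlap each other or the basal groups, and the basal groups overlapped. From summed reads the level after RANKL was 771 times the basal level in WT cells (95% exact interval 459 to 1411, counting error only) and 95.3 times in Mir182ΔM/ΔM cells (60.1 to 161). On the log2(CPM + 1) scale the rise was 7.23 ± 0.18 (SE) in WT and 4.63 ± 0.18 in Mir182ΔM/ΔM cells (limma, adjusted p = 2.5e-07 and 1.7e-06). The response was smaller by 2.60 ± 0.26 in Mir182ΔM/ΔM cells (limma interaction, adjusted p = 0.00051), with -2.65 in replicate 1 and -2.56 in replicate 2. After RANKL the level in Mir182ΔM/ΔM cells was 0.174 of that in WT cells (limma log2 fold change -2.49 ± 0.18, adjusted p = 5.6e-05).

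Ocstamp (chr2:165393760-165400405, minus strand) encodes the related protein OC-STAMP. It had 0 and 1 reads in WT basal cells and 5 and 1 in Mir182ΔM/ΔM basal cells, and stood at 96.5 and 117 CPM in WT RANKL and at 22.2 and 22.7 CPM in Mir182ΔM/ΔM RANKL. The RANKL groups did not overlap. By summed reads the ratio of RANKL to basal was 6201 in WT cells, with an exact interval from 1112 to 2.45e+05 since the basal libraries held 1 read in all, and 202 (92.3 to 550.3) in Mir182ΔM/ΔM cells. The rise was 6.72 ± 0.12 in WT and 4.41 ± 0.12 in Mir182ΔM/ΔM cells on the log2(CPM + 1) scale (limma, adjusted p = 8.9e-08 and 4.3e-07), values that depend on the added 1 CPM, since basal levels were near 0. It was smaller by 2.31 ± 0.17 in Mir182ΔM/ΔM cells (limma interaction, adjusted p = 0.00019), and after RANKL the level was 0.210 of that in WT cells (limma, adjusted p = 1.7e-05). The ratio of Dcstamp to Ocstamp within a library, per kilobase, was 1.597 and 1.703 in WT RANKL and 1.19 and 1.54 in Mir182ΔM/ΔM RANKL, lower in the latter without overlap. In Control cells Dcstamp was at 1.09 and 1.10 CPM and Ocstamp at 0.255 and 0.151 CPM, also far below WT RANKL.

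Among the tetraspanins, Cd9 (chr6:125460266-125494791, minus strand) was at 202 and 206 CPM in WT basal, 226 and 242 CPM in WT RANKL, 208 and 223 CPM in Mir182ΔM/ΔM basal and 151 and 163 CPM in Mir182ΔM/ΔM RANKL. It was lowest in Mir182ΔM/ΔM RANKL, and none of the other loss of function libraries came down to that range. RANKL lowered it in Mir182ΔM/ΔM cells by 0.46 ± 0.07 (limma log2 fold change, adjusted p = 0.0012). In WT cells it was higher by 0.20 ± 0.07 (limma, adjusted p = 0.043), which is the change of the median gene, and with TMM factors the change was -0.009 (adjusted p = 0.92). The level in WT RANKL was 0.677 of that in Control cells, which held 344 and 347 CPM, so beside that group the direction was the opposite one. After RANKL Cd9 was 1.49-fold lower in Mir182ΔM/ΔM than in WT cells (limma, adjusted p = 0.00064) and the responses differed by -0.65 ± 0.10 (limma interaction, adjusted p = 0.0035).

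Cd81 (chr7:143052739-143067934, plus strand), the other tetraspanin, was at 247 and 235 CPM in WT basal, 90.9 and 89.9 CPM in WT RANKL, 223 and 210.2 CPM in Mir182ΔM/ΔM basal and 137 and 124 CPM in Mir182ΔM/ΔM RANKL. RANKL groups lay below basal groups in both genotypes, and no pair of these groups overlapped. With RANKL it was 2.64-fold lower in WT cells and 1.66-fold lower in Mir182ΔM/ΔM cells (limma, adjusted p = 4.1e-06 and 0.00013). The fall was smaller by 0.67 ± 0.10 (log2) in Mir182ΔM/ΔM cells (limma interaction, adjusted p = 0.0032), and after RANKL Cd81 was 1.44-fold higher there than in WT cells (limma, adjusted p = 0.001). Control cells held 167 and 159 CPM, and WT RANKL was 0.556 of their mean.

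By CPM the tetraspanins thus differed in direction between the genotypes after RANKL. Their ratio within a library, which no scaling of the library alters, gives their change relative to each other but not the direction of either. Per kilobase, Cd9 to Cd81 was 1.04 and 1.11 in WT basal, 3.17 and 3.42 in WT RANKL, 1.19 and 1.35 in Mir182ΔM/ΔM basal and 1.41 and 1.67 in Mir182ΔM/ΔM RANKL. It was 2.63 and 2.78 in Control and 2.43 and 2.74 in Mir182mTg cells, so Control without RANKL was nearer to WT RANKL than to WT basal.

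**Figure D2:**
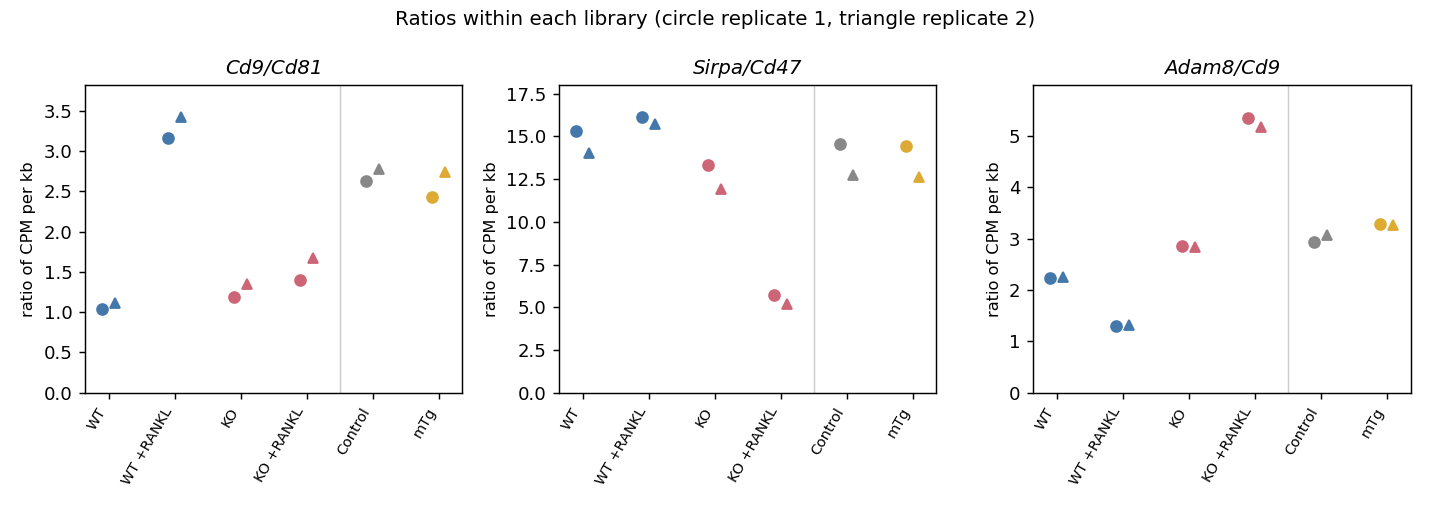
Ratio of CPM per kilobase of Cd9 to Cd81, Sirpa to Cd47 and Adam8 to Cd9 within each library (linear axes from 0), circles for replicate 1 and triangles for replicate 2; KO is Mir182ΔM/ΔM and mTg is Mir182mTg. Cd9 to Cd81 was highest in WT RANKL at 3.17 and 3.42, and Sirpa to Cd47 was lowest in Mir182ΔM/ΔM RANKL at 5.74 and 5.18.

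Cd47 (chr16:49800533-49915010, plus strand), the ligand, was at 83.5 and 86.9 CPM in WT basal, 90.9 and 91.2 CPM in WT RANKL, 92.1 and 102 CPM in Mir182ΔM/ΔM basal and 177 and 194 CPM in Mir182ΔM/ΔM RANKL. Mir182ΔM/ΔM RANKL stood far above the other libraries, and Control (75.5 and 83.3 CPM) and Mir182mTg (76.5 and 84.3 CPM) lay in the range of the rest or below it. RANKL raised Cd47 1.91-fold in Mir182ΔM/ΔM cells (limma, adjusted p = 5e-05). In WT cells the log2 fold change was 0.10 ± 0.08 (limma, adjusted p = 0.31), which a block for the replicate number brought past the threshold (limma, adjusted p = 0.033), whereas TMM factors turned it to -0.11 (adjusted p = 0.25). The responses differed by 0.83 ± 0.11 (log2; limma interaction, adjusted p = 0.0017), and after RANKL the level was 2.02-fold higher in Mir182ΔM/ΔM than in WT cells (limma, adjusted p = 6.1e-05).

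Sirpa (chr2:129592835-129632228, plus strand), the receptor of CD47 on macrophages, was at 2848 and 2712 CPM in WT basal, 3271 and 3195 CPM in WT RANKL, 2734 and 2703 CPM in Mir182ΔM/ΔM basal and 2264 and 2237 CPM in Mir182ΔM/ΔM RANKL. The basal groups overlapped, and the RANKL groups lay on either side of them. RANKL lowered Sirpa 1.21-fold in Mir182ΔM/ΔM cells (limma, adjusted p = 0.0069). The change of 0.22 ± 0.06 (log2) in WT cells passed the threshold (limma, adjusted p = 0.016) but was close to that of the median gene and became 0.01 with TMM factors (adjusted p = 0.89). The responses differed by -0.49 ± 0.09 (limma interaction, adjusted p = 0.0062; with TMM factors -0.32, adjusted p = 0.031), and after RANKL Sirpa was 1.44-fold lower in Mir182ΔM/ΔM than in WT cells (limma, adjusted p = 0.00047). Ligand and receptor thus moved apart in Mir182ΔM/ΔM cells: Sirpa to Cd47, per kilobase, was 13.3 and 11.9 without and 5.74 and 5.18 with RANKL, against 15.3 and 14.0 without and 16.1 and 15.7 with RANKL in WT cells.

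Adam8 (chr7:139978932-139992562, minus strand) encodes a protease that also binds integrins. It was at 1173 and 1209 CPM in WT basal, 764 and 830 CPM in WT RANKL, 1552 and 1657 CPM in Mir182ΔM/ΔM basal and 2114 and 2207 CPM in Mir182ΔM/ΔM RANKL. None of these groups overlapped, and those of WT cells lay below those of Mir182ΔM/ΔM cells with and without RANKL. With RANKL Adam8 was lower by 0.58 ± 0.07 (log2) in WT cells and higher by 0.43 ± 0.07 in Mir182ΔM/ΔM cells (limma, adjusted p = 0.0003 and 0.0016). Both directions held with TMM factors (-0.79 and 0.39). The responses differed by 1.01 ± 0.10 (limma interaction, adjusted p = 0.00048). The difference between genotypes was 1.35-fold at baseline (limma, adjusted p = 0.022) and 2.71-fold after RANKL (limma, adjusted p = 9.6e-06). The baseline call was lost when either replicate of WT basal, Mir182ΔM/ΔM basal or Mir182ΔM/ΔM RANKL was left out (limma, adjusted p from 0.052 to 0.17), with log2 fold changes from 0.38 to 0.48. Control cells, at 2638 and 2789 CPM, stood 2.28 times above WT basal, a larger gap than that between the genotypes at baseline.

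Cd44 (chr2:102811141-102901665, minus strand), the hyaluronan receptor, was at 284 and 247 CPM in WT basal, 554 and 479 CPM in WT RANKL, 347 and 309 CPM in Mir182ΔM/ΔM basal and 795 and 703 CPM in Mir182ΔM/ΔM RANKL. Both RANKL groups lay above both basal groups, and no groups overlapped. With RANKL it was 1.94-fold higher in WT and 2.28-fold higher in Mir182ΔM/ΔM cells (limma, adjusted p = 0.00027 and 0.00011). The responses differed by 0.23 ± 0.16 (log2; limma interaction, adjusted p = 0.35), which the replicate block called (limma, adjusted p = 4.6e-05). After RANKL Cd44 was 1.45-fold higher in Mir182ΔM/ΔM than in WT cells (limma, adjusted p = 0.0078), a call lost without replicate 1 of Mir182ΔM/ΔM RANKL (0.45, adjusted p = 0.053). WT RANKL was 0.788 of the level in Control cells, 714 and 599 CPM, so the rise in WT cells was seen beside WT basal and not beside Control.

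**Figure D3:**
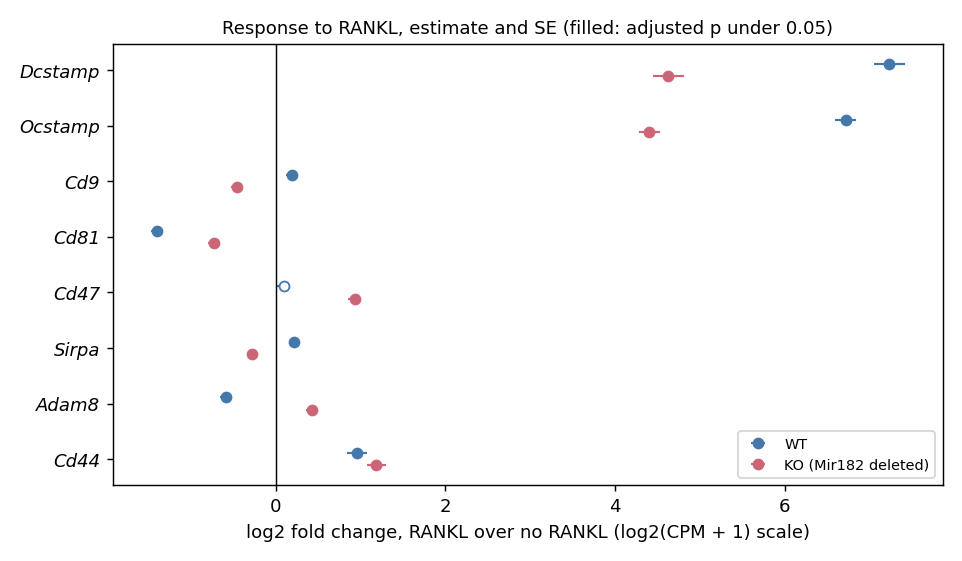
Response to RANKL of each fusion gene in WT (blue) and Mir182ΔM/ΔM cells (red, KO), as the limma log2 fold change on the log2(CPM + 1) scale with its SE; filled points passed the threshold. Dcstamp and Ocstamp rose less in Mir182ΔM/ΔM cells (4.63 against 7.23 and 4.41 against 6.72), and Adam8 fell in WT but rose in Mir182ΔM/ΔM cells.

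The promoters of Adam8 and Cd47, the genes with the largest rise of Mir182ΔM/ΔM over WT cells after RANKL, are shown from RefSeq (GRCm38.p6), from 250 bases before to 50 after the start site. Capitals mark GGGCGG, the core of the SP1 box, on either strand, the only motif of those searched that either window held. The Adam8 window is chr7:139992513-139992812 (minus strand) and the Cd47 window chr16:49855404-49855703 (plus strand).
Adam8 promoter: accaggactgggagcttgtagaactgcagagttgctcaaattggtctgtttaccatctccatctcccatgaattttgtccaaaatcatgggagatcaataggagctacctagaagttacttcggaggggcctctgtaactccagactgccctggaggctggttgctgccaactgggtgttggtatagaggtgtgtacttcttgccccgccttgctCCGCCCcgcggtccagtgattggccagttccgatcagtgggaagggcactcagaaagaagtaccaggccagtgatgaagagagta
Cd47 promoter: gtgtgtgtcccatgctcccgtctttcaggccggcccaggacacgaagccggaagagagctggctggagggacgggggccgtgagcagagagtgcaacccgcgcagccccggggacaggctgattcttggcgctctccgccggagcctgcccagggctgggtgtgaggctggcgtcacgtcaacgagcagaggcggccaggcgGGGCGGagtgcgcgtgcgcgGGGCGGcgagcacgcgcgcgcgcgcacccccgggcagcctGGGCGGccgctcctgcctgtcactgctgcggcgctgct
The motifs searched on both strands were GGAAA (NFAT core), TGANTCA (AP-1), GAAA repeated after any 2 bases (an IRF pair), GAGGAA (PU.1 core) and GGGCGG, and they may overlap each other. Of all 32851 windows of this length, 61.3% held the first, 7.81% the second, 3.44% the third, 28.3% the fourth and 35.7% the fifth. Of the 8 genes, 5 had a window in this table (Cd9, Cd81, Cd47, Adam8 and Cd44), and none of these held the AP-1 or the IRF letters. Cd9 and Cd44 held GGAAA, 2 matches each, Cd44 also GAGGAA, and all 5 held GGGCGG. GC content was 74% for Cd47, 65.7% for Cd81, 61.3% for Cd9, 58% for Cd44 and 52.3% for Adam8. No promoter is printed for Dcstamp, Ocstamp and Sirpa.

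Between the genotypes without RANKL the 8 genes lay close together. The log2 fold changes of Mir182ΔM/ΔM against WT ran from -0.15 for Cd81 to 0.43 for Adam8, with a median of 0.12 against 0.01 over all genes. Of the 8, 5 did not overlap between the groups, namely Cd9, Cd81, Cd47, Adam8 and Cd44, and neither did 41% of all genes tested. With the replicate number as a block 3 were higher and 1 lower: Adam8, Cd47 (0.18, adjusted p = 0.0013) and Cd44 (0.31, adjusted p = 3.7e-08) were higher, and Cd81 (-0.15, adjusted p = 0.0023) was lower (limma). That block also raised the calls over all genes from 317 higher and 129 lower to 2170 and 1481.

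**Figure D4:**
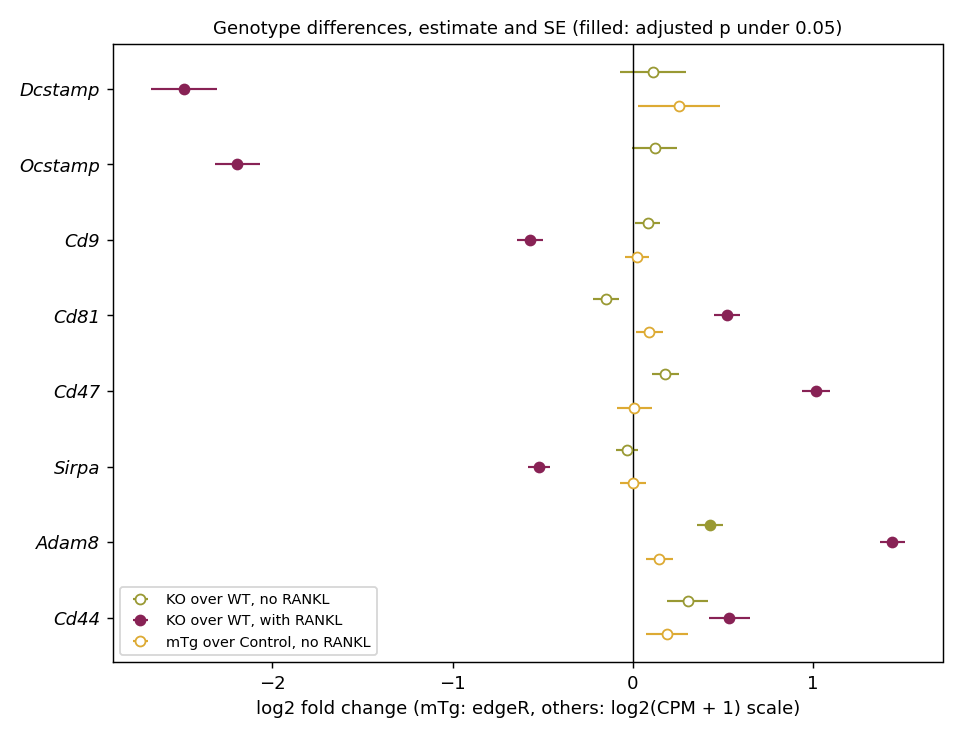
Log2 fold change with its SE of each fusion gene for Mir182ΔM/ΔM over WT cells without RANKL (olive) and with RANKL (purple), both by limma on log2(CPM + 1), and for Mir182mTg over Control cells (yellow, edgeR); filled points passed the threshold. After RANKL all 8 genes were called, from -2.49 for Dcstamp to 1.44 for Adam8, and Ocstamp was not tested in Mir182mTg.

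In Mir182mTg cells, which were cultured without RANKL, Dcstamp was at 1.33 and 1.29 CPM against 1.09 and 1.10 in Control cells, and Ocstamp at 0.363 and 0.251 CPM against 0.255 and 0.151, with 7 to 12 reads against 4 and 8, too few for the filter of edgeR. The others stood, in replicates 1 and 2, as follows. Adam8 was at 2967 and 3081 CPM against 2638 and 2789 in Control, and Cd44 at 808 and 698 CPM against 714 and 599. Cd9 was at 345 and 362 CPM against 344 and 347, and Cd81 at 180.5 and 168 CPM against 167 and 159. Sirpa was at 2467 and 2378 CPM against 2448 and 2362. By CPM all 8 were higher in Mir182mTg cells in both replicates (Sirpa turned to -0.002 with DESeq2), Dcstamp, Cd81 and Adam8 without overlap, by log2 fold changes from 0.001 to 0.26 for the 7 tested (median 0.09, against -0.00158 over all genes), and none passed the threshold. Of all genes tested 35.8% were higher in both replicates, and 18% were higher without overlap. The smallest adjusted p, 0.89, was that of Adam8 (0.15 ± 0.08, edgeR). With the replicate number as a block Adam8 (edgeR, adjusted p = 0.00089) and Cd44 (0.19, edgeR, adjusted p = 0.00012) passed, and the calls over all genes went from 12 higher and 19 lower to 838 and 984.

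For 6 of the 8 genes the replicates differed in the same direction in every condition, as they did for 51.3% of all genes tested in the loss of function experiment. Cd44 was lower in replicate 2 than in replicate 1 in all 6 conditions, by 0.17 to 0.25 (log2), and Cd81 and Sirpa were lower in all 6, while Cd9, Cd47 and Adam8 were higher in all 6. The replicates also differed in Rn45s, the ribosomal RNA precursor, at 742 to 1176 CPM in replicate 1 and 9778 to 21273 CPM in replicate 2. Within replicate 1 and within replicate 2 the difference between genotypes after RANKL had the same direction for all 8 genes, and for 89.6% of all genes tested.

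The other genes of the fusion pathway were followed in a list of 65, of which 58 were tested in the loss of function experiment. With RANKL 22 of them were higher and 19 lower in WT cells, and 19 were higher and 21 lower in Mir182ΔM/ΔM cells. All genes gave 40.6% and 22% in WT and 30.4% and 26.4% in Mir182ΔM/ΔM cells. After RANKL 16 were higher and 19 lower in Mir182ΔM/ΔM cells, 23 without a call, and in each list below these counts stand against 14.3% higher and 30.9% lower among all genes. At baseline 3 were higher and 1 lower (background 2.71% and 1.1%), and with the replicate block 16 and 17 (limma). That block gave 2170 higher and 1481 lower over all 11691 genes. In Mir182mTg cells 1 of 57 tested passed (background 0.0993% higher and 0.157% lower). It was Ccr2, at 119 and 119 CPM against 238 and 227 in Control (edgeR log2 fold change -0.98, adjusted p = 0.021). With the block 9 were higher and 13 lower (edgeR), beside 838 and 984 over all 12081 genes. Not tested for low levels were Syna, Synb, Tspan10, Has1, Has2, Has3 and Adam12.

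Of 25 genes tested for fusion machinery and receptors, 8 were higher and 10 lower in Mir182ΔM/ΔM cells after RANKL, with a median log2 fold change of -0.05 against -0.15 over all genes. Cd200, a membrane glycoprotein that engages a receptor on myeloid cells, was at 61.9 and 58.4 CPM in WT RANKL and 7.46 and 7.16 CPM in Mir182ΔM/ΔM RANKL (limma log2 fold change -2.88, adjusted p = 3.7e-05). Ccr2, the receptor of the chemokine CCL2, was at 60.1 and 56.7 CPM in WT RANKL and 7.36 and 7.59 CPM in Mir182ΔM/ΔM RANKL. RANKL lowered Ccr2 in Mir182ΔM/ΔM cells (limma log2 fold change -2.95, adjusted p = 2.4e-07), and in WT cells its change was -0.18 (adjusted p = 0.058), which was called with the replicate block (limma, adjusted p = 0.005) and, at -0.38, with TMM factors (limma, adjusted p = 0.0021). Atp6v0d2, the proton pump subunit required for fusion, was at 718 and 553 CPM in WT RANKL and 118 and 95.7 CPM in Mir182ΔM/ΔM RANKL, from 30.02 to 41.6 CPM in the basal libraries. Its response was smaller by 2.64 ± 0.28 (log2) in Mir182ΔM/ΔM cells (limma interaction, adjusted p = 0.00066).

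Of 10 tetraspanins and partners tested, 3 were higher and 3 lower in Mir182ΔM/ΔM cells after RANKL. Ptgfrn and Igsf8, which encode related immunoglobulin-domain partners of CD9 and CD81, differed from WT cells in opposite directions after RANKL. Ptgfrn was at 37.2 and 39.8 CPM in WT RANKL and 11.4 and 11.9 CPM in Mir182ΔM/ΔM RANKL (limma log2 fold change -1.64, adjusted p = 1.4e-05). Without RANKL it was higher in Mir182ΔM/ΔM than in WT cells (limma log2 fold change 0.555, adjusted p = 0.021). It rose with RANKL in both genotypes, by 3.41 in WT and 1.21 in Mir182ΔM/ΔM cells. Igsf8 was at 87.4 and 92.6 CPM in WT RANKL and 158 and 154 CPM in Mir182ΔM/ΔM RANKL (limma log2 fold change 0.79, adjusted p = 0.00038). With RANKL Igsf8 fell in WT and rose in Mir182ΔM/ΔM cells (-0.67 and 0.45), the directions that Adam8 took. Tspan5 was lower in Mir182ΔM/ΔM RANKL (9.16 and 10.8 CPM) than in WT RANKL (18.1 and 20.0 CPM; limma, adjusted p = 0.00048).

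None of the 5 partners of CD47 and SIRPα passed between the genotypes after RANKL (median log2 fold change -0.13) by limma, edgeR or DESeq2, and 1 was lower at an unadjusted p under 0.05 (limma). With the replicate block limma called 1 higher and 3 lower, while over all 11691 genes it called 2740 higher and 5815 lower. The largest differences were -0.45 for Thbs1, 0.18 for Calr and -0.18 for Skap2 (limma, adjusted p = 0.14, 0.5 and 0.051; with the block 3.5e-05, 5.9e-06 and 5.4e-05). Of 5 ligands and linkers of CD44 tested, 2 were higher. With the block 4 were higher and 1 lower, beside the same 2740 and 5815 over all genes. Vcan, which encodes a hyaluronan-binding proteoglycan, was at 49.2 and 44.5 CPM in WT RANKL and 224 and 218 CPM in Mir182ΔM/ΔM RANKL (limma log2 fold change 2.22, adjusted p = 9.1e-06), from 2.32 to 3.47 CPM in the basal libraries. Spp1, which encodes osteopontin, was at 674 and 704 CPM in WT RANKL and 1099 and 1224 CPM in Mir182ΔM/ΔM RANKL (limma log2 fold change 0.75, adjusted p = 0.00017). It was lower with RANKL than without in both genotypes. For Ezr, a linker to actin, the difference was 0.14 (limma, adjusted p = 0.45; with the block 0.0033).

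Of 6 other ADAM proteases and integrin partners tested, 3 were higher and 1 lower in Mir182ΔM/ΔM cells after RANKL. Adam15 was at 168 and 175 CPM in WT RANKL and 357 and 335 CPM in Mir182ΔM/ΔM RANKL (limma log2 fold change 1.01, adjusted p = 2.9e-05). Adam9 was at 228 and 208 CPM in WT RANKL and 342 and 340.4 CPM in Mir182ΔM/ΔM RANKL (limma log2 fold change 0.64, adjusted p = 0.00044). Both fell with RANKL in both genotypes, less so in Mir182ΔM/ΔM cells, unlike Adam8, which rose there. Itga9, an integrin subunit, was lower in Mir182ΔM/ΔM RANKL (-0.72; limma, adjusted p = 0.0028).

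Of 7 regulators of Dcstamp, 5 were lower in Mir182ΔM/ΔM cells after RANKL and none higher by limma, with a median log2 fold change of -0.76, also none at an unadjusted p under 0.05. By edgeR and by DESeq2 on the reads recovered 1 was higher and 4 lower. Over all genes edgeR called 2481 higher and 2448 lower of 12579, and DESeq2 2331 and 2255 of 11691. Nfatc1, the transcription factor that drives osteoclast genes, was at 647 and 523 CPM in WT RANKL and 122 and 100.5 CPM in Mir182ΔM/ΔM RANKL, against 90.3 to 107 CPM in the basal libraries (limma log2 fold change between genotypes -2.38, adjusted p = 2.4e-05). It was higher with RANKL in WT cells by 2.56 (limma, adjusted p = 6.9e-06). In Mir182ΔM/ΔM cells the change was 0.18 (adjusted p = 0.34), which the replicate block called (limma, adjusted p = 0.00016). Mitf, another activator, was at 193 and 171 CPM in WT RANKL and 107 and 94.8 CPM in Mir182ΔM/ΔM RANKL (limma, adjusted p = 0.00078). Tal1, a repressor of Dcstamp, was also lower in Mir182ΔM/ΔM RANKL, at 7.95 and 7.67 CPM against 13.7 and 14.9 CPM in WT RANKL (limma, adjusted p = 0.00055).

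**Figure D5:**
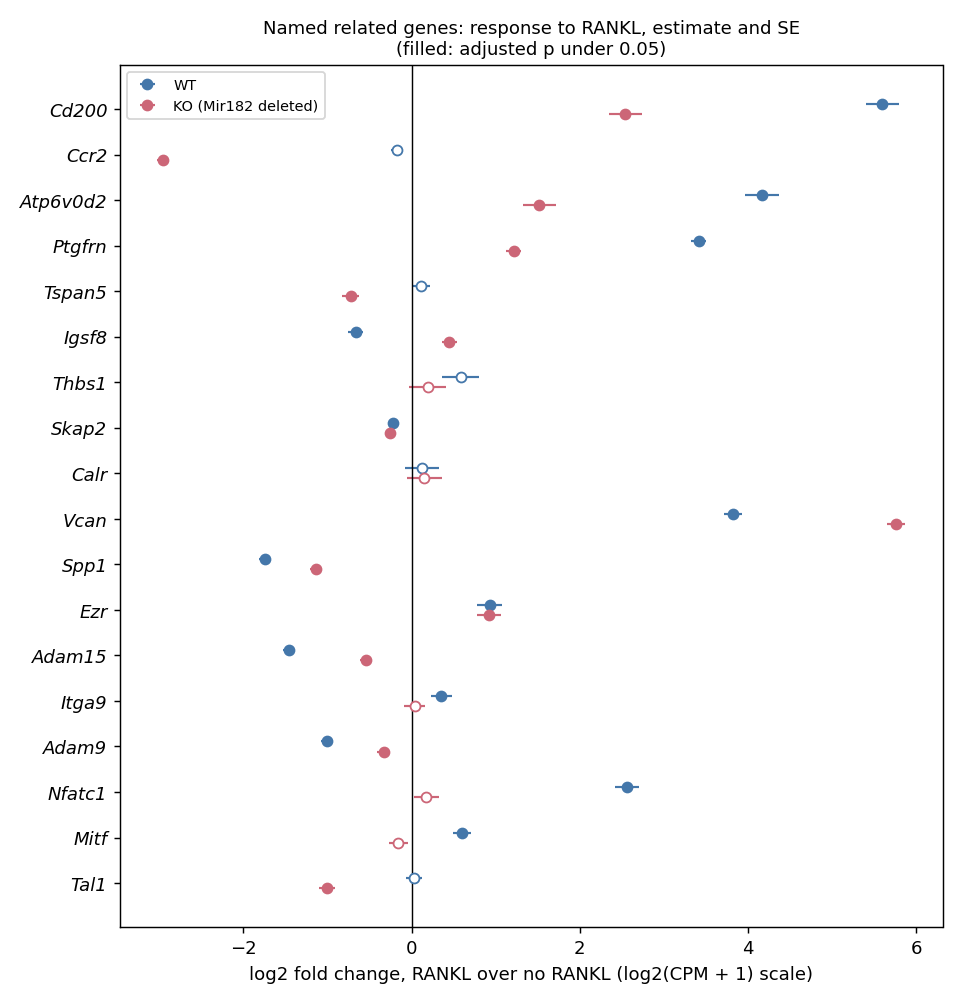
Response to RANKL of the 18 named genes of the related list in WT (blue) and Mir182ΔM/ΔM cells (red, KO), as the limma log2 fold change on the log2(CPM + 1) scale with its SE; filled points passed the threshold. The change of Nfatc1 was 2.56 in WT and 0.18 in Mir182ΔM/ΔM cells, Ccr2 changed by -2.95 in Mir182ΔM/ΔM cells, and Igsf8 took opposite directions.

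For each fusion gene the 3 genes most like it were found by Pearson's r of log2(CPM + 1) over the 12 libraries, among 11768 other genes. This is a description, since the 12 libraries form 6 conditions and the contrasts between conditions dominate r. Dcstamp was nearest to Spint2 (r = 0.9958), Asb2 (0.9955) and Psmd10 (0.9955), and Ocstamp to Spns2 (0.9985), Mt3 (0.9980) and Spint2 (0.9973). Spint2, which encodes an inhibitor of membrane serine proteases, was at 55.0 and 61.8 CPM in WT RANKL, 14.3 and 15.1 CPM in Mir182ΔM/ΔM RANKL and at most 0.702 CPM elsewhere. The nearest genes of Cd9 were Itpr3 (0.9932), Lyrm9 (0.9851) and Snx1 (0.9842), and those of Cd81 were Pea15a (0.9944), A530064D06Rik (0.9901) and B3gnt3 (0.9883). Cd47 was nearest to H2-Q4 (0.9894), Gbp6 (0.9865) and H2-K1 (0.9839), which encode class I histocompatibility heavy chains and a guanylate-binding protein. Gbp6 was at 21.97 and 20.8 CPM in Mir182ΔM/ΔM RANKL and at 1.07 CPM or less in the others. For Sirpa they were Ddhd1 (0.9866), Sub1 (0.9800) and Tsc22d1 (0.9752), for Adam8 Cdkn1a (0.9920), St3gal5 (0.9881) and Stat6 (0.9832), and for Cd44 Inip (0.9900), Dgcr8 (0.9877) and Smpd4 (0.9877).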

How the data were processed

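RNA was measured in 12 libraries of mouse BMMs, 2 for each of 6 conditions, assigned from the sample labels. Per the study's methods and the submitters' processing notes, poly-A+ libraries were aligned to mm10 with TopHat or HISAT2, and the authors used Cufflinks for RPKM, HTSeq for counts and edgeR for CPM. Per the labels the starting molecule was polyA RNA in replicate 1 and total RNA in replicate 2, and the tools named differ in the same way. For the loss of function libraries the authors deposited CPM, in which whole reads were recovered for 100.0% of values (tolerance 0.01 of a read). For the gain of function libraries they deposited raw counts per gene. The deposited RPKM of replicate 1 equal CPM divided by a fixed length, which gave the lengths used here. Of the 24421 names, 27 had been turned into dates.

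CPM were tested with limma 3.58.1 (trend) on log2(CPM + 1) over 11691 genes (1 CPM or more in 2 or more of the 8 libraries), in one fit of 4 groups. Counts were tested with edgeR 4.0.16 (TMM, filterByExpr, quasi-likelihood) over 12081 genes, and DESeq2 1.42.0 was an alternative. Benjamini-Hochberg adjustment ran over all genes of a comparison, with a threshold of 0.05 and no fold cut. The design had set limma for CPM and edgeR for counts. The scripts were tested on simulated counts. Replicate numbers mark the processing named in the labels, and the log2 ratios of replicate 2 to 1 correlated between conditions with r from 0.686 to 0.754 over 15 pairs (11794 genes), so the numbers pair the samples. The main fits held no term for the replicate number, so the shift between replicates is part of the spread that their p-values measure. Mean ± SD is over 2 libraries, and SE is that of the fit. The depth of 24951280 to 33050619 reads sets the floor of 3 reads at 0.0908 to 0.120 CPM, and intervals cover counting error only. Overlapping transcripts on the opposite strand exist for Cd9, Cd81, Adam8 and Cd44, and Adam8 also overlaps the miRNA gene Mir7062 on its own strand. Whether counting used strand is not given in the sources used here.

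The 8 genes and the related and marker lists were chosen with earlier results of these data known. Named beside them were, by rule, the 3 genes of highest r for each, in each related list the 3 tested genes of largest difference between genotypes after RANKL, and Atp6v0d2 and Spp1. Lyz2, Ifi202b and Rn45s were named after their values were seen. Alternatives were other pseudocounts, filters and scalings, the replicate block, edgeR or DESeq2 on the reads recovered, and each library left out.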

Additional observations from a re-analysis of the deposited data

Results flagged for a closer look

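For 7 of the 8 fusion genes the response to RANKL differed between Mir182ΔM/ΔM and WT cells by the interaction term of the limma fit, 3 higher and 4 lower, against 7.44% and 17.1% of all genes tested. On the log2 scale, Mir182ΔM/ΔM minus WT, the difference was -2.60 for Dcstamp, -2.31 for Ocstamp, -0.65 for Cd9, -0.49 for Sirpa, 0.67 for Cd81, 0.83 for Cd47 and 1.01 for Adam8. With TMM factors the values were -2.45, -2.17, -0.48, -0.32, 0.84, 1.002 and 1.18, and all 7 stayed past the threshold, with limma adjusted p from 0.00027 to 0.031. All of these differences use the 2 WT RANKL libraries, in which Lyz2 and Ifi202b differed from the rest of that experiment, and the part of that in the differences was not tested.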

How the results depend on the processing

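Of 820 comparisons of a gene's fold change with an alternative, 756 kept direction and call, 30 lost the call, 15 gained one and 19 turned, and none of the 19 was a difference between the genotypes after RANKL or an interaction. In WT cells the calls for RANKL changed with the setting: of the 8 genes 5 were higher, but 3 without a filter, with at least 1 CPM in every sample (which leaves out Dcstamp and Ocstamp), with TMM factors with or without the replicate block, with edgeR with or without it, and with DESeq2, and 3 to 5 with a library left out. Cd9 there turned to -0.009 with TMM factors, with or without the block, -0.013 with edgeR and -0.014 with edgeR and the block. Cd47 turned to -0.11 with TMM factors with or without the block (called lower with it, limma adjusted p = 0.013), -0.051 with quantile normalization, -0.115 with edgeR, -0.117 with edgeR and the block (also called lower, adjusted p = 0.012) and -0.095 with DESeq2. The filter of 1 CPM in every sample also left 3 genes higher with RANKL in Mir182ΔM/ΔM cells, 2 lower between genotypes after RANKL and 2 lower in the interaction, since it drops Dcstamp and Ocstamp. Without a filter the call of Sirpa was lost for RANKL in Mir182ΔM/ΔM cells, after RANKL between genotypes (limma, adjusted p = 0.055) and in the interaction, as was that of Cd44 between genotypes after RANKL (limma, adjusted p = 0.054).

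At baseline 1 gene was higher and 0 lower between Mir182ΔM/ΔM and WT cells. Without a filter it was 0 higher, with the replicate block (alone, with TMM factors, or in edgeR) 3 higher and 1 lower, and with a library left out 0 to 1 higher. Uncalled values that turned were Dcstamp (-0.008 to 0.230 with a library left out) and Sirpa (0.014 with quantile normalization, -0.067 to 0.003 with a library left out). For Mir182mTg against Control, 0 genes were higher, and 2 with the replicate block. Uncalled values that turned there were Cd9 (-0.009 to 0.053 with a library left out), Cd47 (-0.064 to 0.086) and Sirpa (-0.030 to 0.029, and -0.002 with DESeq2). Beside the calls named in the report, the block alone changed no other call of the 8 genes. Over all genes the calls between Mir182mTg and Control were 12 higher and 19 lower, but 60 and 69 with DESeq2, 70 and 71 without a filter and 31 to 85 higher with a library left out. At baseline between Mir182ΔM/ΔM and WT cells they were 317 and 129, but 72 to 203 higher with a library left out. In the interaction they were 870 and 2005, but 1888 and 5001 with the block, and after RANKL 1668 and 3607, but 2740 and 5815 with it. The block gave 2170 and 1481 at baseline, and 838 and 984 for Mir182mTg against Control. With 1 library of a group left, the lone library was assumed to vary like the other groups. The cause of these shifts was not tested beyond what an alternative removes. Depth limits Dcstamp and Ocstamp without RANKL, where libraries held 0 to 44 reads.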

Other observations

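The Control and WT basal cells were both LysMcre(+) BMMs without RANKL, but from different experiments, and the levels of the fusion genes are set side by side here without a test. Adam8 was 2.28 times, Cd44 2.47 times and Cd9 1.70 times as high in Control as in WT basal, from the means of the replicates. Cd81 was at 0.676, Sirpa at 0.865 and Cd47 at 0.932 of the WT basal level. Dcstamp was at 4.68 times that level, from 34 and 29 reads in Control against 10 and 4 in WT basal.

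Set beside Control, WT RANKL cells held 170.5 times as much Dcstamp, 1.34 times as much Sirpa and 1.15 times as much Cd47, and less Adam8 (0.294), Cd81 (0.556), Cd9 (0.677) and Cd44 (0.788). For Cd9 and Cd44 this is the opposite direction to that seen beside WT basal.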
